A study of Mus musculus with 12 samples.

Results

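The SOCS family and other brakes of JAK-STAT signalling were followed in mouse cortical neuronal cultures exposed to interferon-gamma. The genes are Socs1, Socs2, Socs3, Socs5, Socs6, Socs7, Cish, Pias1, Ptpn2 and Ptpn6. They were chosen by symbol, and each matched 1 row of the count table, so they make up 10 of 43629 gene rows. Poly(A) RNA was sequenced from 12 samples, 6 labelled IFNG (treatment label IFNy) and 6 labelled Control. In the IFNG group, cortical neuronal cultures received a lentivirus overexpressing Ifng at 7 days in vitro and were harvested after 10 more days. The protocol text is the same for all samples, so the labels do not say what construct, if any, the Control cultures received. Mouse strain, the promoter of the construct and whether samples came from separate cultures are not stated in the labels used here. P-values therefore set a group difference against the variation among these samples, and that variation may be technical.

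Interferon-gamma binds a receptor whose chains carry the kinases JAK1 and JAK2, and these phosphorylate STAT proteins, which enter the nucleus and switch on target genes. SOCS proteins close the loop: cytokine signals induce them, and they bind receptors or kinases through an SH2 domain and recruit a ubiquitin ligase through the SOCS box. SOCS1 and SOCS3 also block the kinase directly through a short kinase inhibitory region. PIAS1 binds activated STATs and is a SUMO ligase, while the phosphatases encoded by Ptpn2 (TC-PTP) and Ptpn6 (SHP-1) remove phosphate from kinases and STATs.

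Libraries held between 13875435 and 34239380 counts. IFNG 5 stood apart from the rest of its group over all genes: chi-square per gene, which also grows with depth, was 44.4 to 73.8 against each other IFNG library, 13.3 to 41.8 among those 5, and 7.04 to 36.0 among Control libraries. Without IFNG 5 the log2 fold changes of the 5 genes called below were 4.74 for Socs1, 1.05 for Socs3, -0.73 for Cish, -0.48 for Socs2 and -0.23 for Socs7, and the call of Socs7 was lost (edgeR adjusted p = 0.0647). Ifng itself, read as the check of the labels, had 0 to 3 counts in each Control library and 92 to 421 counts in each IFNG library, so every library matched its label. Neuronal markers were abundant in both groups, from 6360 to 7120 summed CPM in Control libraries, and from 4630 to 6050 in IFNG, and 7 of 15 tested fell while none rose. Astrocyte markers were also present, and all 16 tested (of 18 listed) rose; their sum ran from 3380 to 3790 CPM in Control and from 5930 to 9370 CPM in IFNG. CPM, the unit of level used here, sets the counts of a gene against the library total after TMM scaling, which corrects for composition. In such bulk samples, fewer cells of a type and less RNA per cell cannot be told apart.

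Of the 10 genes, 9 had enough counts to be tested, and 5 of these changed. Socs1 and Socs3 rose, while Cish, Socs2 and Socs7 fell. Socs5, Socs6, Pias1 and Ptpn2 did not pass, and Ptpn6 was too rare for the test. Calls came from edgeR's quasi-likelihood test at a Benjamini-Hochberg adjusted p of 0.05 over 15241 genes. Over all those genes 24.1% were called, 14.3% as higher and 9.79% as lower. Among the 9 genes the median log2 fold change was -0.23, against -0.02 over all genes tested. The 2 groups did not overlap for Socs1, Socs2 and Cish, where 12.8% of all genes tested had groups that did not overlap.

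**Figure D1:**
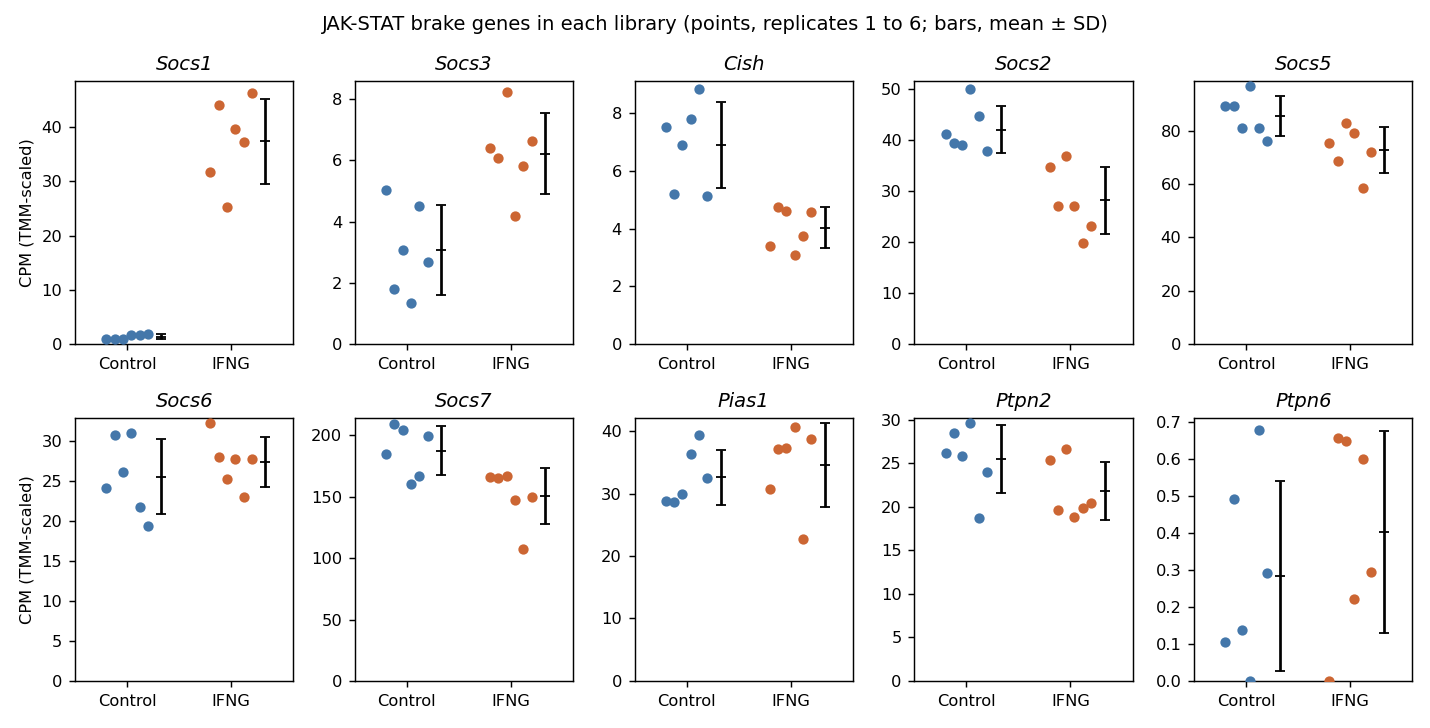
Each panel plots the TMM-scaled CPM of a gene (vertical axis, from 0) in the 6 Control and 6 IFNG libraries, as points in replicate order, with the mean and SD beside them. Socs1 sits at 1.004 to 1.79 CPM in Control and 25.4 to 46.2 CPM in IFNG libraries, while Cish and Socs2 lie lower in all IFNG libraries.

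**Figure D2:**
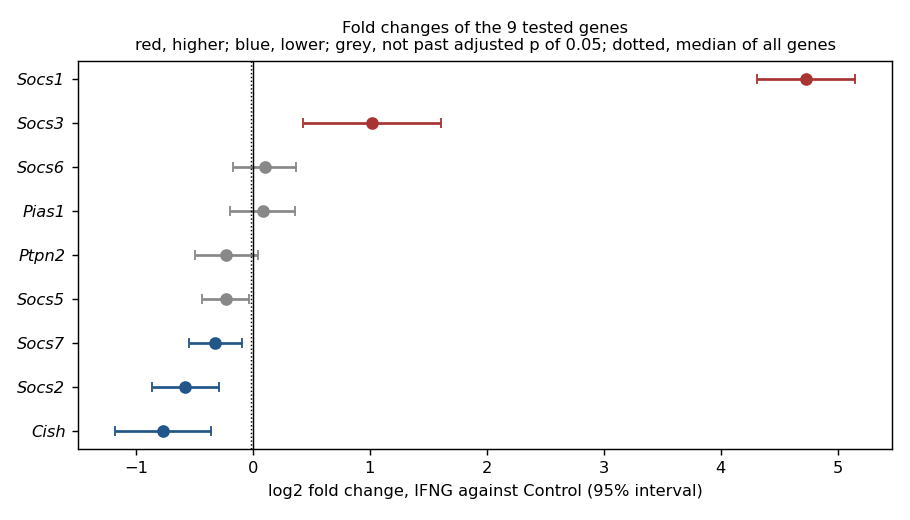
Log2 fold changes of IFNG against Control (horizontal axis) for the 9 tested genes, with 95% intervals and a dotted line at the median of all genes tested. Socs1 stands at 4.73 and Socs3 at 1.02, and Cish, Socs2 and Socs7 lie below 0.

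Socs1, the inhibitor most closely tied to the interferon-gamma receptor, rose far more than the other 9 genes. Its lowest, median and highest levels were 1.004, 1.40 and 1.79 CPM in Control libraries and 25.4, 38.4 and 46.2 CPM in IFNG libraries. Every IFNG library lay above every Control library, and the lowest IFNG level was that of IFNG 3. Behind these levels stood 152 counts over the Control libraries and 4764 over the IFNG libraries. The mean went from 1.39 ± 0.41 to 37.4 ± 7.83 CPM (SD, n = 6 each). The log2 fold change was 4.73 ± 0.20 (SE; edgeR adjusted p = 1.86e-13), or 26.6-fold, with a 95% interval of 4.31 to 5.15 on the log2 scale. Relative to the summed astrocyte markers, a comparison chosen after seeing the data, Socs1 still differed by 3.504 on the log2 scale (exact two-sided permutation test, adjusted p = 0.0108). In this comparison genes that rose were set against astrocyte markers and genes that fell against neuronal markers. Each marker sum moved the same way as its genes, which alone lessens each difference.

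Socs1 (ENSMUSG00000038037) is a protein-coding gene on the minus strand of chromosome 16, from 10782240 to 10785536 in GRCm38. Bases before the RefSeq starts of Socs1 and Socs3 are shown because these are the genes of the set that rose. The Socs3 bases lie inside the annotated Socs3 gene and not before it. RefSeq promoter entries of GRCm38.p6 were found for 5 of the 10 genes (Socs1, Socs3, Cish, Pias1 and Ptpn6). The 250 bases before each start were searched on both strands for TTCNNNGAA, the core of the gamma-activated site that STAT dimers bind, and for GAAANNGAAA, a core of the element bound by interferon regulatory factors. Capitals mark the matches, and the sequences run 5′ to 3′ on the strand of the gene.
Socs1, chr16:10785537-10785786, minus strand: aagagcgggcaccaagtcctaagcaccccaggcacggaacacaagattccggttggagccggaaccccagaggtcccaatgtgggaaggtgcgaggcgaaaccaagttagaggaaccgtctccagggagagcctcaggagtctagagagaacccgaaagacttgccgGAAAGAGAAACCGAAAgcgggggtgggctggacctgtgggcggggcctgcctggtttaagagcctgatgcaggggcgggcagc
Socs3, chr11:117969452-117969616, minus strand, up to the first exon of GENCODE M21 in the window: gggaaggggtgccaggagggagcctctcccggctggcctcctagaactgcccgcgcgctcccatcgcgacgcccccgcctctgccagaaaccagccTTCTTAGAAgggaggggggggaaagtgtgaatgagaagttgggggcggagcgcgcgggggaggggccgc

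In the Socs1 window, GAAANNGAAA matched at 2 overlapping places, GAAAGAGAAA from 83 to 74 bases and GAAACCGAAA from 77 to 68 bases before the start. The Socs3 window held 1 match to TTCNNNGAA, where the pattern is met on both strands. It was TTCTTAGAA, from 154 to 146 bases before the RefSeq start and inside the annotated gene. Neither motif's letters were found in the windows of Pias1 and Ptpn6. They were not found in the Cish window either, from 107296409 to 107296658 on chromosome 9. That window lies inside the annotated Cish gene and not before it. The same holds for Socs3 (117969367 to 117969616 on chromosome 11) and Pias1 (62980880 to 62981129 on chromosome 9). Of 32851 RefSeq promoters of the same length, 7.02% held TTCNNNGAA and 2.98% held GAAANNGAAA. A match is a description of the letters, and binding was not measured here.

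The genes whose profile over the 12 libraries lay nearest to that of Socs1 were Stat2, Nod1 and Slamf8. Nearness was the root mean square difference of log2 CPM after each gene's Control mean was subtracted, among 12958 genes. It depends largely on the size of the group difference, and shared regulation was not tested. Stat2, a transcription factor of type I interferon signalling, was at a distance of 0.175. It went from 25.7 ± 4.62 to 523 ± 105 CPM (SD, n = 6 each). Nod1, a sensor of bacterial cell wall fragments, was at 0.278 and Slamf8, a surface receptor of the SLAM family, at 0.288.

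Socs3, which restrains signalling through the gp130 receptor chain and STAT3, rose by less. The gene (ENSMUSG00000053113) spans 117966079 to 117970047 on the minus strand of chromosome 11 in GRCm38. The lowest, median and highest levels were 1.36, 2.87 and 5.02 CPM in Control libraries and 4.19, 6.22 and 8.24 CPM in IFNG libraries. The groups overlapped: 5 of 6 IFNG libraries lay above all Control libraries, and IFNG 4, at 4.19 CPM, lay below Control 1 and Control 5. The Control libraries varied widely, with a coefficient of variation of 47.4%. The mean went from 3.07 ± 1.46 to 6.21 ± 1.31 CPM (SD, n = 6 each), a log2 fold change of 1.02 ± 0.28 (SE; edgeR adjusted p = 0.0115). Astrocyte markers rose in the same libraries, and relative to their sum Socs3 stood at -0.06 on the log2 scale (exact two-sided permutation test, adjusted p = 0.866), a comparison chosen after seeing the data. The profiles nearest to that of Socs3 were those of Bmpr1b, Fgfr2 and Sft2d2, at distances of 0.350, 0.365 and 0.365. Bmpr1b, a receptor for bone morphogenetic proteins, rose by 0.93 ± 0.12 and Fgfr2, a fibroblast growth factor receptor, by 0.90 ± 0.10 on the log2 scale (SE; edgeR adjusted p = 4.62e-06 and 1.38e-06).

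Cish and Socs2, the feedback inhibitors best known as targets of STAT5 downstream of growth hormone and related cytokines, both fell. Cish (ENSMUSG00000032578) lies on chromosome 9, from 107296026 to 107302784 on the plus strand, and Socs2 (ENSMUSG00000020027) on chromosome 10, from 95385362 to 95417180 on the minus strand. Cish ran from 5.14 to 8.82 CPM in Control libraries (median 7.20) and from 3.09 to 4.75 CPM in IFNG libraries (median 4.15). All 6 IFNG libraries lay below all Control libraries, by a small margin between IFNG 2 and Control 6. Its log2 fold change was -0.77 ± 0.20 (SE; edgeR adjusted p = 0.00677). In GRCm38, 7.46% of the Cish exon length overlaps an antisense gene and 4.07% a pseudogene on the other strand, and with the strand setting unknown those reads cannot be told apart. Socs2, which limits growth hormone receptor signalling, ran from 37.8 to 50.1 CPM in Control libraries (median 40.3) and from 19.9 to 37.0 CPM in IFNG libraries (median 27.1). Here too the groups did not overlap, although IFNG 3 came within 1 CPM of Control 6. Socs2 had a log2 fold change of -0.58 ± 0.14 (SE; edgeR adjusted p = 0.00363).

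The summed neuronal markers were lower in the libraries where Cish and Socs2 fell, although 8 of the 15 markers did not pass. Relative to the summed neuronal markers, Cish differed by -0.45 and Socs2 by -0.30 on the log2 scale. Neither difference passed (exact two-sided permutation tests, adjusted p = 0.0505 for both over 5 genes), a comparison chosen after seeing the data. Without that adjustment the exact p-values were 0.0260 and 0.0303.

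Among the longer SOCS proteins, Socs7 was the most abundant gene of the set per exon length and the member of this group that fell. SOCS5, SOCS6 and SOCS7 carry long amino-terminal regions; SOCS5 has been tied to epidermal growth factor and interleukin-4 receptors, and SOCS6 and SOCS7 to insulin receptor signalling. Socs7 (ENSMUSG00000038485) spans 97362551 to 97398542 on the plus strand of chromosome 11. It ran from 160.6 to 209 CPM in Control libraries (median 192) and from 107 to 167 CPM in IFNG libraries (median 157). The groups overlapped, and 3 of 6 IFNG libraries lay below all Control libraries. Its log2 fold change was -0.32 ± 0.11 (SE; edgeR adjusted p = 0.0367). The call was lost without any of 7 of the 12 libraries: Control 1, Control 2, Control 3, Control 6, IFNG 4, IFNG 5 or IFNG 6 (adjusted p = 0.0564 to 0.0893). Relative to the summed neuronal markers Socs7 stood at -0.02 (exact two-sided permutation test, adjusted p = 0.866).

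Socs5 and Socs6 did not pass. Socs5 ran from 76.0 to 96.7 CPM in Control libraries, and from 58.7 to 82.9 CPM in IFNG libraries, and 4 of 6 IFNG libraries lay below all Control libraries. Its log2 fold change was -0.23 ± 0.10 (SE; edgeR adjusted p = 0.0826), and its unadjusted 95% interval ran from -0.43 to -0.03. It passed without IFNG 3 (adjusted p = 0.0448) and on library totals without a composition factor (adjusted p = 0.0499). Socs6 ran from 19.4 to 30.9 CPM in Control libraries, and from 23.0 to 32.2 CPM in IFNG libraries, with a log2 fold change of 0.10 and a 95% interval of -0.17 to 0.37 (edgeR adjusted p = 0.623).

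Pias1, Ptpn2 and Ptpn6, which act on STATs and kinases without a SOCS box, gave no call. Pias1 ran from 28.6 to 39.4 CPM in Control libraries, and from 22.8 to 40.6 CPM in IFNG libraries. Its log2 fold change was 0.08, with a 95% interval of -0.20 to 0.36 (edgeR adjusted p = 0.707), and the IFNG range enclosed the Control range. Ptpn2 ran from 18.7 to 29.7 CPM in Control libraries, and from 18.8 to 26.6 CPM in IFNG libraries. Its log2 fold change was -0.23, with a 95% interval of -0.50 to 0.04 (edgeR adjusted p = 0.222). For these 2 genes the intervals leave room for a change of up to 0.50 on the log2 scale.

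Ptpn6 encodes a phosphatase found mainly in blood cells and microglia, and it lay near the detection limit. Its counts were 0 to 12 per Control library and 0 to 22 per IFNG library, and Control 4 and IFNG 1 held none. The Control mean was 0.284 ± 0.258 CPM and the IFNG mean 0.404 ± 0.273 CPM (SD, n = 6 each). With no filter on low counts its log2 fold change was 0.55 (edgeR adjusted p = 0.750). Microglial markers were similarly scarce: 4 of 20 could be tested, P2ry12 rose, and the sum of the list ran from 15.6 to 25.6 CPM in Control libraries, and from 20.1 to 31.5 CPM in IFNG libraries. Cd68, which other cells also express, had a Control mean of 5.58 ± 1.66 CPM and an IFNG mean of 5.37 ± 1.86 CPM (SD, n = 6 each). Tmem119 had 0 counts in all Control libraries and 3 counts over the IFNG libraries. In GRCm38, 6.96% of the Ptpn6 exon length overlaps an antisense gene.

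Divided by exon length, the order of the genes differed between the groups chiefly through Socs1. Exon length was the merged length of all annotated exons of a gene, such as 6419 bases for Cish and 11349 for Socs6. The order between genes therefore depends on the annotation. In Control libraries the order from highest to lowest mean was Socs7, Socs5, Ptpn2, Pias1, Socs2, Socs6, Cish, Socs3, Socs1 and Ptpn6. Socs7 stood at 25.8 ± 2.79 and Socs1 at 0.479 ± 0.140 CPM per kilobase of exon (SD, n = 6 each). Neighbours whose Control ranges overlapped were Pias1 and Socs2, Cish and Socs3, and Socs3 and Socs1. In IFNG libraries Socs1, at 12.9 ± 2.69 CPM per kilobase, came after Socs7, at 20.7 ± 3.14, and before Socs5, at 11.3 ± 1.33. The ranges of Socs1 overlapped with those of both neighbours there. Ptpn2, Pias1, Socs2, Socs6, Socs3, Cish and Ptpn6 followed in that order. The ranges of Pias1 and Socs2, of Socs2 and Socs6, and of Socs6 and Socs3 overlapped.

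**Figure D3:**
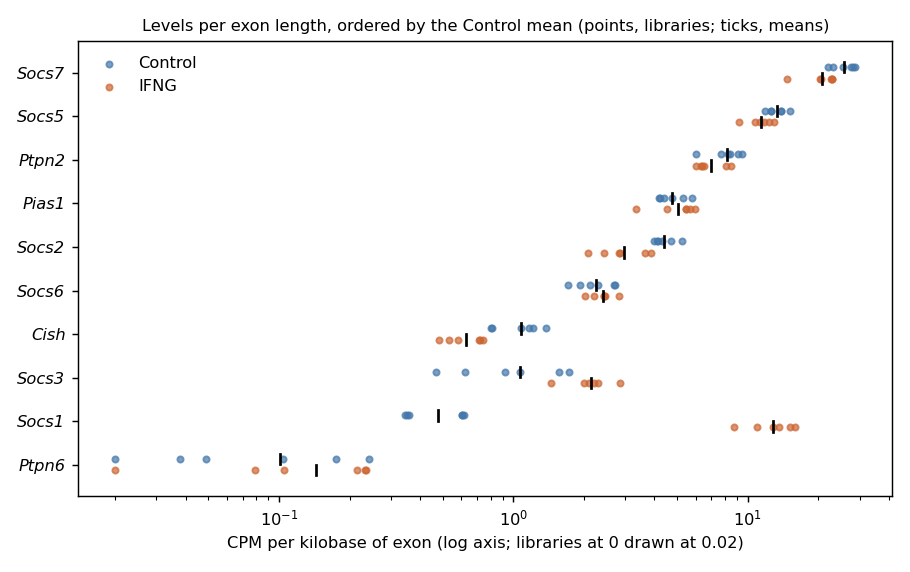
Levels in CPM per kilobase of exon (horizontal log axis) for the 10 genes, ordered by the Control mean, with a point for each library and a tick at each group mean. Socs1 moves from 0.479 CPM per kilobase in Control to 12.9 in IFNG libraries, beside Socs5.

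The ratios below restate the Socs1 rise against each of the other genes within the same library. All 9 share Socs1, whose groups already did not overlap, so they are not separate evidence for its rise. The log2 ratio of Socs1 to Socs3, its closest relative in mechanism, went from -0.99 ± 0.88 in Control to 2.57 ± 0.55 in IFNG libraries (SD, n = 6 each), a difference of 3.56. For the other 8 genes the difference in log2 ratio lay between 4.25 for Ptpn6, whose counts were near 0, and 5.42 for Cish. The groups did not overlap in any of the 9 ratios. Exact two-sided permutation tests over 924 arrangements gave p = 0.00216 for each, the smallest they can give, and 0.00216 after adjustment over the 9 ratios. The difference was not below 3.32 for Socs3 when any library was left out.

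Within the IFNG group, libraries differed in how much Ifng RNA they held, from 4.98 CPM in IFNG 3 to 17.9 CPM in IFNG 5, the library that stood apart over all genes. IFNG 3 also had the lowest Socs1 level, and IFNG 5 had the lowest Socs2 level, 19.9 CPM. Over the 6 libraries Pearson's r with Ifng was 0.76 for Socs1 and Spearman's rho 0.49 (exact permutation p = 0.0819 and 0.356). For Socs2 r was -0.91 and rho -0.77 (exact permutation p = 0.0139 and 0.103). For Ptpn2 r was -0.88 and rho -0.77 (exact permutation p = 0.0153 and 0.103). A negative r was shared by Socs5 (-0.82, rho -0.83), Socs7 (-0.73, rho -0.83), Socs3 (-0.66), Pias1 (-0.43), Socs6 (-0.29) and Cish (-0.25). Ptpn6 stood at 0.18. None of the 10 genes passed after adjustment over the 10 relations: the exact adjusted p was 0.0764 for Socs2 and Ptpn2 and 0.205 for Socs1, and by rho it was 0.206 or more for every gene. Without IFNG 3 and IFNG 5, the libraries farthest from the median Ifng level, 4 libraries remained. There r was 0.81 for Socs1, -0.73 for Socs2 and -0.98 for Ptpn2 (exact permutation p = 0.208, 0.417 and 0.0833). None of the 10 genes passed there either (exact permutation test, adjusted p = 0.417 or more). Neuronal and astrocyte markers moved along the same libraries: IFNG 5 had the lowest neuronal sum, 4628 CPM, and IFNG 3 the highest, 6051 CPM, while IFNG 3 had the lowest astrocyte sum, 5931 CPM. Their part in these relations was not tested.

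**Figure D4:**
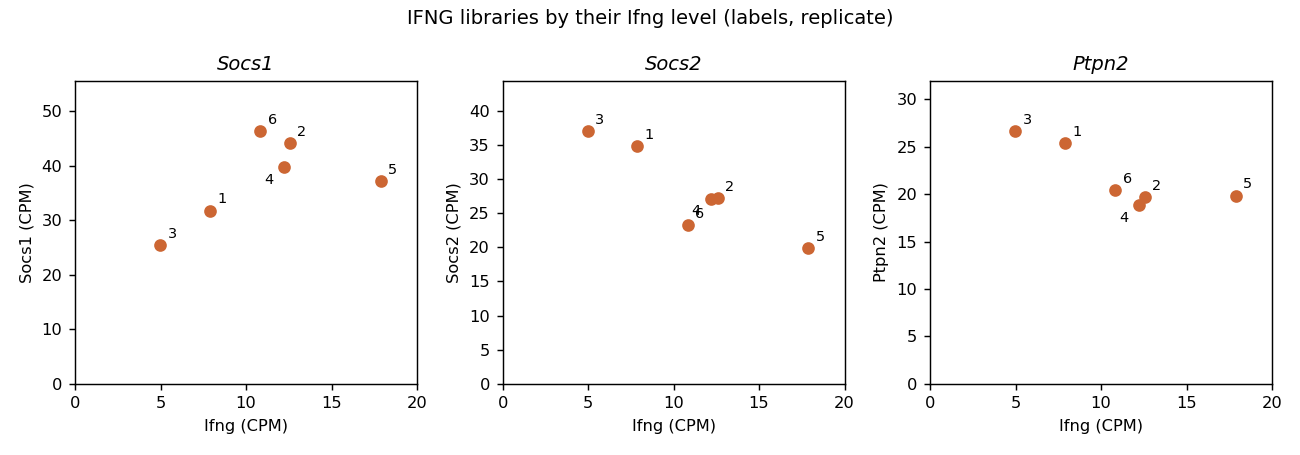
The 6 IFNG libraries, numbered by replicate, plotted by their Ifng level (horizontal axis, CPM) against Socs1, Socs2 and Ptpn2 (vertical axes, CPM). IFNG 3, with the least Ifng, has the lowest Socs1 and the highest Socs2 and Ptpn2 levels.

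Other inhibitors of the pathway were read in the same fit, where 24.1% of all genes tested were called. Of 12 listed genes, 10 were tested and 1 rose; the median of their log2 fold changes was 0.01. That gene was Usp18, which shuts off the type I interferon receptor and removes ISG15 from proteins. It went from 0.380 ± 0.296 to 68.5 ± 20.5 CPM (SD, n = 6 each), a log2 fold change of 7.44 ± 0.34 (SE; edgeR adjusted p = 7.48e-13). Ptpn11, the most abundant of those that did not pass, stood at 177 ± 12.7 and 185 ± 12.9 CPM. Socs4 stood at 0.24 ± 0.13 (edgeR adjusted p = 0.218), and Pias2, Pias3, Pias4 and Ptpn1 did not pass either.

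Of the machinery that SOCS and PIAS proteins work through, the ubiquitin ligase and the SUMO enzymes were listed, beside the same 24.1% called over all genes. Of 7 genes of the SOCS box ubiquitin ligase, 1 fell: Eloc, an adaptor that binds the SOCS box, at -0.34 ± 0.11 (SE; edgeR adjusted p = 0.0337). Of 10 genes of SUMO conjugation, Senp1, a protease that removes SUMO, rose by 0.69 ± 0.11 and Sumo2 had a log2 fold change of -0.28 ± 0.09 (SE; edgeR adjusted p = 6.53e-05 and 0.0335). The other 8 did not pass.

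The kinases, receptors and STATs that these brakes act on stood beside a share of 14.3% called higher over all genes. Of 8 genes of interferon receptors and Janus kinases, 4 rose, none fell, and the median of the 8 log2 fold changes was 0.32. Jak3 rose by 1.34, Ifngr1 by 0.86, Jak2 by 0.51 and Ifnar2 by 0.44 on the log2 scale, and Jak1, the most abundant that did not pass, stood at 0.19 ± 0.09 (SE; edgeR adjusted p = 0.161). All 4 tested STAT genes of 7 listed rose, among them Stat2 by 4.34, Stat3 by 2.32 and Stat5b by 1.18 on the log2 scale. Stat5b rose in the libraries where the STAT5 targets Cish and Socs2 fell, and a link between these changes was not tested. All 18 listed interferon-gamma target genes rose, with a median of 7.18. Among them Irf1, an interferon regulatory factor, rose by 5.96 with an SE of 0.12 (edgeR adjusted p = 1.35e-17). Gbp7 rose by 7.38 and Irf8 by 7.30, so Socs1, at 4.73, lay below the median of that list.

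Genes of the cytokine axes upstream of Socs3 and of Cish and Socs2 moved in both directions. Of 14 listed receptors and ligands of the gp130 family, 9 were tested, 4 rose and 1 fell. Osmr, the oncostatin M receptor, rose by 1.92, Il11ra1 by 0.93, Il6st, which encodes gp130, by 0.89 and Lifr by 0.62 on the log2 scale. The ligands Il6, Osm, Cntf and Il11 had too few counts to be tested. Cntfr, the most abundant that did not pass, stood at -0.03 ± 0.13 (edgeR adjusted p = 0.909). Of 14 genes of the growth hormone and STAT5 axis, 10 were tested; Bcl6, a repressor that STAT5 is known to hold down, rose by 0.98 and the growth hormone receptor gene Ghr by 0.54, while Irs2 fell by 0.51. Igf1 stood at -0.69 ± 0.33 (SE; edgeR adjusted p = 0.152).

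Markers of cell types that could carry these genes were read beside the same 24.1% called over all genes. In the astrocyte list the median log2 fold change was 1.08, and the 3 genes with the smallest p were Aldh1l1, Slc1a3 and Vim, at 1.56, 1.65 and 1.77. The list ran from 0.29 for Atp1b2 to 2.28 for Id3. Slc1a3, with means of 774 CPM in Control and 2429 CPM in IFNG, weighed most in the sum. The comparisons of Socs1 and Socs3 with astrocyte markers rest on that sum. In the neuronal list the median was -0.28, with Dcx at -0.83, Gad1 at -0.68 and Syn1 at -0.42. Map2, the most abundant that did not pass, stood at -0.28 ± 0.13 (edgeR adjusted p = 0.121). The fall was not uniform: 7 of the 15 fell and 8 did not pass, with Nefm at 0.20 and Slc17a7 at 0.05. In the oligodendrocyte lineage Cnp rose while Pdgfra and Olig2 fell, of 9 tested. Pdgfrb and Fn1 rose among 6 tested fibroblast and mural genes, and Ly6c1 among 2 endothelial genes. Of 14 lymphocyte markers, 1 was tested and did not pass, and 5 had 0 counts in every library. How far these cells contribute to the levels of the SOCS genes was not tested.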

How the data were processed

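The authors deposited raw counts per Ensembl gene, whole numbers that were not normalized, for 12 samples. Per the submitters' processing notes, STAR 2.4 and DESeq2 were used and GRCm39 and mm10 named, with no role given; how reads were assigned to genes, by which annotation and with which strand setting, was not stated. Symbols, coordinates and exon lengths came from GENCODE M21 (GRCm38), which need not be the one behind the counts, and promoters from RefSeq (GRCm38.p6).

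The 2 groups were compared with edgeR 4.0.16 under R 4.3.3, using TMM scaling, filterByExpr, two-sided quasi-likelihood F-tests and Benjamini-Hochberg adjustment at 0.05, without a block. SE was derived from the log2 fold change and F. Ratios used a pseudocount of 2 counts, and profile distances 0.5 CPM. All pairs of libraries within a group differed beyond sampling noise. The test was checked on simulated counts. Alternatives were other scalings and filters, a replicate block, each library left out, DESeq2 1.42.0, limma-voom (limma 3.58.1), a test against a 1.2-fold change, and other pseudocounts; ratios to summed cell-type markers were added after seeing the data. Genes named were the 10 members, Ifng, from each pathway or marker list all called genes where 5 or fewer were called and otherwise the 3 of lowest p plus the uncalled gene of highest level, and the 3 nearest profiles of each gene called at 2-fold or more with a mean of at least 1 CPM; a few others were named after their values were seen, and results of some listed genes are not reported here. The members and lists were chosen with earlier results of these data known.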

Additional observations from a re-analysis of the deposited data

Results flagged for a closer look

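Socs7 in IFNG 5 stood apart from its group, at 107 CPM against 148 to 167 CPM in the other 5 IFNG libraries. The gap to the nearest library was 0.68 of the group's range, above Dixon's 95% limit for a group of that size. It was the 1 such value among 22 groups examined (10 genes and Ifng in each group), and chance gives about 1 in 20. Without IFNG 5 the log2 fold change of Socs7 was -0.23 (edgeR adjusted p = 0.0647). Over all genes IFNG 5 also stood apart from the other IFNG libraries, with a chi-square per gene of 44.4 to 73.8 against them and 13.3 to 41.8 among those 5. It held the lowest level of Socs2, Socs5, Socs6 and Pias1 in its group and the highest Ifng level, 17.9 CPM.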

How the results depend on the processing

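Socs1 and Socs3 were called higher, and Cish and Socs2 lower, in all 21 other fits on scaled totals: other scalings, filters and tools, the replicate block and each library left out. The number called lower ranged from 2 to 4 through Socs7 and Socs5. Socs7 was lost on totals without the genes higher in IFNG (-0.21), with no filter on low counts (-0.30) and against a 1.2-fold change (-0.32), and ran from -0.35 to -0.23 with a library left out. Socs5 was gained on library totals without a composition factor (-0.27) and ran from -0.28 to -0.17 with a library left out. Relative to summed markers Socs3 stood at -0.057 (exact two-sided permutation test, adjusted p = 0.866). Cish, Socs2 and Socs7 were no longer called (-0.45, -0.30 and -0.0225). The marker list was picked by each gene's own direction, which alone lessens each difference, and the cause was not tested. Genes called lower over the whole table numbered 1492, but 750 on totals without the genes higher in IFNG and 458 against a 1.2-fold change. Higher calls were 59.4% of all calls, against 79.8% on those totals, where the median of all genes moved from -0.02 to 0.10, and 51.3% without a composition factor. Without IFNG 3 and IFNG 5 the correlation with Ifng changed sign for Cish, from -0.25 to 0.33, and for Pias1, from -0.43 to 0.90. Over those 4 libraries neither passed (exact permutation p = 0.833 and 0.167). Same-numbered samples deviated together with r from -0.001 to 0.12, so the numbers were not treated as pairs; the replicate block gave 2114 higher and 1563 lower genes and changed no call of the 9 genes. Depth limits Ptpn6, with 31 and 57 counts per group.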

Other observations

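Socs1 in the Control libraries lay at 2 levels, a split seen after the fact, from few counts, and not tested. Control 1, Control 2 and Control 3 held 1.004, 1.04 and 1.02 CPM, from 19, 19 and 15 counts, and Control 4, Control 5 and Control 6 held 1.75, 1.75 and 1.79 CPM, from 31, 31 and 37 counts. Ifng had 0 to 3 counts in these libraries, too few to compare with Socs1.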
